A study of Schizosaccharomyces pombe with 2 samples.

Results

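Long non-coding RNAs (lncRNAs) of fission yeast, Schizosaccharomyces pombe, are often transcribed antisense to a protein-coding gene or away from its promoter. The lncRNAs described here do neither. They are the 1005 of 7213 annotated SPNCRNA features that overlap no protein-coding feature on either strand and whose 5′ end does not lie within 500 nt upstream of a coding gene that points away from it. Of the other SPNCRNA features, 5585 overlapped a coding feature and 620 were divergent, and 3 more met the rule but were left out by name. The 1005 members lie on chromosomes I (368), II (387) and III (250), measure 56 to 6078 nt with a median of 431 nt, and make up part of a table of 12684 features.

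The libraries were made for a study of mamRNA, a lncRNA that shares its locus with the snoRNA U14, and hold native RNA of wild type cells read on nanopores. Its 2 libraries are biological replicates of a single group, so that no condition can be compared with another and each mean ± SD rests on n = 2. The cells were vegetative haploids of the h- mating type, carried leu1-32, a leucine auxotrophy marker, and pat1-L95G::kanR, an allele of the Pat1 kinase gene, and were kept at 30°C in EMM, a minimal medium, over 2 days, with harvest at an OD of 0.8 to 1.0. After depletion of rRNA, 350 ng of RNA was polyadenylated in vitro, which lets RNAs with and without a poly(A) tail enter the library. A nanopore reads each RNA from its 3′ end, so a read stands for an RNA molecule or the 3′ part of one.

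Intergenic lncRNAs come from several kinds of places. Some surround small nucleolar RNAs (snoRNAs), which guide the chemical modification and cleavage of ribosomal RNA (rRNA) and fall into the box C/D class, with the boxes TGATGA and CTGA, and the box H/ACA class, with an ACA close to the 3′ end. Others arise in rDNA spacers, at centromeres, where transcripts of the outer repeats feed the RNA interference pathway, or near meiotic genes whose RNAs are removed in vegetative cells by Mmi1, a YTH-family protein that binds the motif TNAAAC. In the reference annotation of assembly ASM294v3, 981 members had a gene of the same identifier, all with the same start and end as in the deposited table, and 24 had none under that identifier. The name lncRNA describes the position and the annotation, since 21 members were shorter than 200 nt and several of the most abundant ones held a snoRNA.

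The sequences of the most abundant members outside known snoRNAs are shown first, as read from ASM294v3 and written as DNA from 5′ to 3′. SPNCRNA.808, at chrI:2265549-2265838 on the minus strand, held the most reads. It has 1 TGATGA, at nt 8, and the only CTGA at nt 150, and both are in capitals.
SPNCRNA.808: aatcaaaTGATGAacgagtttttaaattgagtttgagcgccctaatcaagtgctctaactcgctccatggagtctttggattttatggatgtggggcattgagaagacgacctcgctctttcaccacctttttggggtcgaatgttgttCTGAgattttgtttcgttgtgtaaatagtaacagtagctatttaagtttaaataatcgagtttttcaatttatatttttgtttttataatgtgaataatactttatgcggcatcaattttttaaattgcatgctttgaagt

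The last 94 nt of SPNCRNA.242, at chrI:4154601-4154694 on the plus strand, are printed because they hold the same pair of boxes, with TGATGA at nt 257 and CTGA at nt 324 of the 335 nt of the interval, again in capitals.
SPNCRNA.242: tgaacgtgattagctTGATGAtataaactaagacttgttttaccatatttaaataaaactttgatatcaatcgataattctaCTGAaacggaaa

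SPNCRNA.7137 runs over chrIII:992263-992666 on the minus strand, opposite the annotated box H/ACA snoRNA snR10. The 167 nt that face snR10, chrIII:992436-992602, are printed as read on the strand of SPNCRNA.7137, with the ACA that stands before the last 3 nt in capitals.
SPNCRNA.7137: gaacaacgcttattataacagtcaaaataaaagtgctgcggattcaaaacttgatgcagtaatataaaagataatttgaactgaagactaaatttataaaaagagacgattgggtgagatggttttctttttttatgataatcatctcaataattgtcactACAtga

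SPNCRNA.7111, at chrIII:926408-926689 on the minus strand, was the third of the single-copy members that contain no annotated snoRNA on their strand. No motif is marked in it.
SPNCRNA.7111: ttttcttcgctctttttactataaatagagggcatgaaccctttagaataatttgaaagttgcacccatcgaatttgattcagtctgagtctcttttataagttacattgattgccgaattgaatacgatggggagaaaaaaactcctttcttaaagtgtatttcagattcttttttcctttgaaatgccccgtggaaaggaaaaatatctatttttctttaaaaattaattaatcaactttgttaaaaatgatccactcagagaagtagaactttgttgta

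SPNCRNA.1094, at chrIII:23658-23889 on the minus strand, is an rDNA spacer interval that stands 527 nt upstream of an 18S rRNA row of the same strand. It is printed without marked letters.
SPNCRNA.1094: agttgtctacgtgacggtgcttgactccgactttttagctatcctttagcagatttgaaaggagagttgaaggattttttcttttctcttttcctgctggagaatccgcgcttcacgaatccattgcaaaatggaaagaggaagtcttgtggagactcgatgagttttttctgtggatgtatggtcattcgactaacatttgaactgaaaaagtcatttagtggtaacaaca

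The interval of SPNCRNA.103, named sme2, is shown for its many TNAAAC. The 200 nt with most matches, chrII:339192-339391 on the minus strand, are printed with the 10 TNAAAC in capitals.
SPNCRNA.103: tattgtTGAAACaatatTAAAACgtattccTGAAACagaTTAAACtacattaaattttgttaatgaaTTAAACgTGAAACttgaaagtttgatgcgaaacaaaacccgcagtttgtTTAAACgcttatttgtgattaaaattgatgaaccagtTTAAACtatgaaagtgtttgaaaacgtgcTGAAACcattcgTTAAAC

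Around the 5′ end, 7 members with many reads carry CAGTCACA, the HomolD box known from ribosomal protein gene promoters of fission yeast, and their windows are shown because they include both snoRNA intervals and RNAs not annotated as such. Each line gives 60 nt on the strand of the member, with the box in capitals as CAGTCACA or, where it is on the opposite strand, as its complement TGTGACTG. They lie at chrI:2265872-2265931 (minus), chrIII:992627-992686 (minus), chrIII:1718292-1718351 (minus), chrI:4154317-4154376 (plus), chrII:3874897-3874956 (minus), chrI:1199951-1200010 (plus) and chrI:3177833-3177892 (plus), in this order.
SPNCRNA.808: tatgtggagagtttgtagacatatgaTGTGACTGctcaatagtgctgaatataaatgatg
SPNCRNA.7137: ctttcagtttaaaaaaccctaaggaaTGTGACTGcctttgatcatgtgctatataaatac
SPNCRNA.7474: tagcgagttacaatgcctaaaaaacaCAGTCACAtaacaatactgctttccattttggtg
SPNCRNA.242: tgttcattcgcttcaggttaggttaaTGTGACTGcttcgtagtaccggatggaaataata
SPNCRNA.445: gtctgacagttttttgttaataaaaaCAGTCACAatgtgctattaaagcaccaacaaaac
SPNCRNA.723: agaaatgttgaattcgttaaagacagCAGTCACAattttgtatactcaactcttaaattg
SPNCRNA.87: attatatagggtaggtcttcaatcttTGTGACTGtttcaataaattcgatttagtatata

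The libraries held 12871729 counts in replicate 1 and 12579850 in replicate 2. Much of this was still rRNA, with 53.7% of the counts of replicate 1 and 54.9% of those of replicate 2 in the 3 features of 5.8S rRNA. Without rRNA features, 5176895 and 4748138 counts were left. CPM below is the count of a feature divided by its library total and scaled to 1000000 counts. Where a feature has no reads, 3 counts are still possible, or 0.233 CPM for replicate 1 and 0.238 CPM for replicate 2. As a check of the mating type, the M cell pheromone genes mfm1, mfm2 and mfm3 had 4405, 2603 and 601 reads in replicate 1 and 4270, 2733 and 597 in replicate 2. The P cell genes map2 and map3 had 2 and 9 reads in replicate 1 and 0 and 14 in replicate 2. The h- label thus matched the genes that were read.

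Most members were hardly represented. No read was found in either library for 288 of the 1005 members, 479 had 1 to 9 reads in both libraries together, 197 had 10 to 94, 24 had 100 to 824 and 17 had at least 1000. Thus 238 members (23.7%) had at least 10 reads. The median over all members of the level averaged over both libraries was 0.177 CPM per kb, where CPM per kb is CPM divided by the length of the interval in kb. Within the libraries the median was 0.193 CPM per kb in replicate 1 and 0.177 in replicate 2. At these depths a member without reads is not shown to be untranscribed.

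The level per length can be set beside that of the other classes. The median was 0.0953 CPM per kb for the 5584 lncRNAs that overlap a coding feature, 0.355 for the 619 divergent lncRNAs and 5.0 for the 5152 coding features. Not divided by length, the medians were 0.0786 CPM for the members and 0.0777 for the overlapping lncRNAs, which thus hardly differed. They were 0.158 CPM for the divergent lncRNAs and 9.84 for coding features. The median lengths of these 4 classes were 431, 700, 474 and 1766 nt, in the same order. The share without a read was 28.7% among the members. At least 10 reads were found for 1200 of the overlapping lncRNAs, 189 of the divergent lncRNAs and 4941 of the coding features. No test was made between classes, because features are not replicates.

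**Figure D1:**
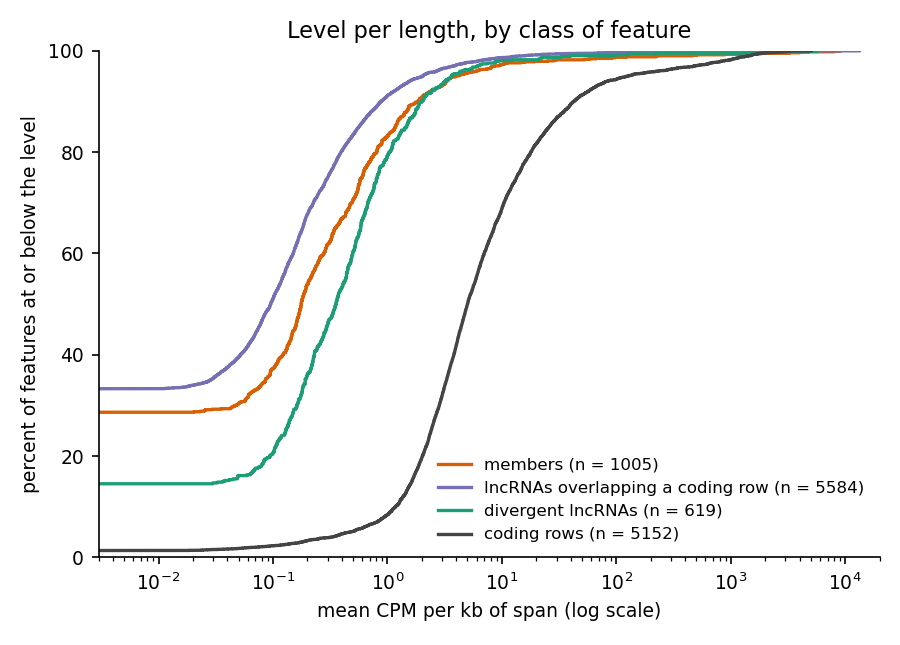
Cumulative percent of features (y axis) at or below a mean level in CPM per kb (x axis, log scale) for the 1005 members, 5584 lncRNAs that overlap a coding feature, 619 divergent lncRNAs and 5152 coding features. Each curve starts at the percent of features without reads, and the members lie between the overlapping and the divergent lncRNAs over most of the range.

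The limit of 500 nt can be read against the values on either side of it. Of the 64 members whose 5′ end lay past the limit by up to 100 nt, 14 had at least 10 reads and the median level was 0.180 CPM per kb. Of the 67 lncRNAs within the last 100 nt before the limit, which the rule leaves out, 15 had at least 10 reads and the median was 0.217 CPM per kb.

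Detection differed with length and with the number in the identifier. Outside the ends of chromosome III and the snoRNA intervals, 13 of 183 members of up to 250 nt had at least 10 reads, and 31 of 37 members longer than 2000 nt did. Per kb the medians of these groups were 0.168 and 0.257 CPM. Identifiers below 2000 covered 269 members, of which 136 had at least 10 reads, with a median of 0.615 CPM per kb. The 736 members with higher identifiers included 102 such members and had a median of 0.145 CPM per kb.

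Reads of the members were very unevenly spread. Together the members held 189853 reads in replicate 1, which is 1.47% of that library (95% interval by the Wilson method, 1.468 to 1.482), and 164416 reads in replicate 2, or 1.31% (1.301 to 1.313). The 10 most abundant held 91.3% of the member reads in replicate 1 (91.16 to 91.42) and 90.3% in replicate 2 (90.12 to 90.40). The intervals cover counting error only, and the shares of the libraries differed by more than that. Among all features, 6 members were in the top 100 by mean CPM and 15 in the top 500.

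**Figure D2:**
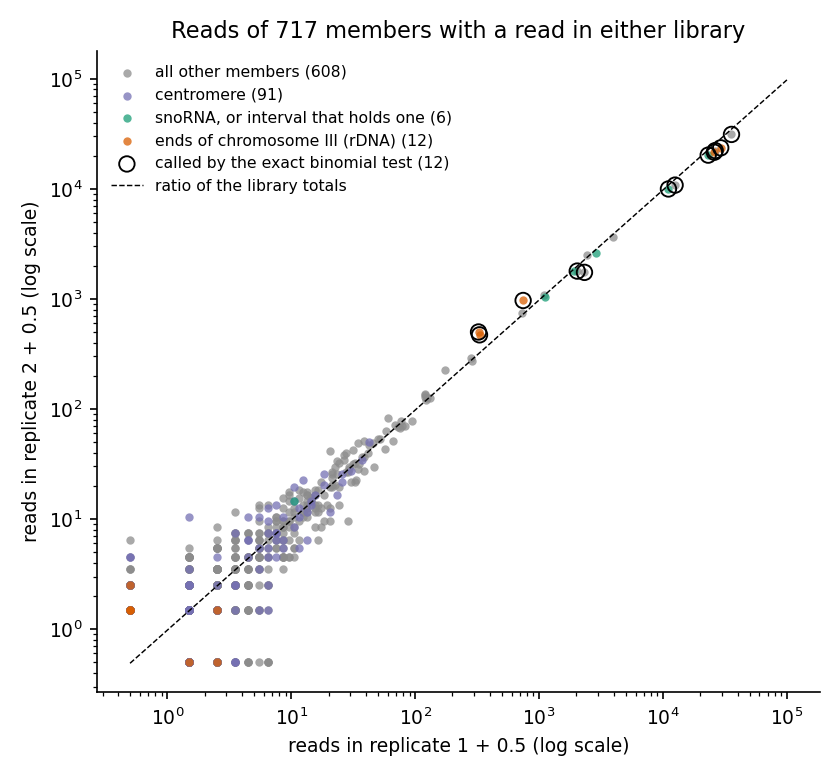
Reads of the 717 members with a read in either library, replicate 1 (x axis) against replicate 2 (y axis), both plus 0.5 on log scales, with colours for position and rings around the 12 members called different between the libraries. The dashed line is the ratio of the library totals, and the called members all lie at the upper right, with at least 801 reads in sum.

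SPNCRNA.808, the most abundant member, was read 35713 times in replicate 1 and 31243 times in replicate 2. Its level was 2629 ± 206 CPM (SD, n = 2), or 9066 CPM per kb. It lies 148 nt downstream of rpc2, a gene of an RNA polymerase III subunit on the same strand that had 131 and 174 reads, and 144 nt from the end of the convergent gene mug133, which had 18 and 14. The lncRNA on its opposite strand, SPNCRNA.3016, had 4 and 3 reads, so that nearly all reads of the locus were on 1 strand. No other interval of the genome matched SPNCRNA.808 over at least 100 nt at 95% identity. TGATGA followed by CTGA 40 to 200 nt later on the transcribed strand occurred in 78 of the 1005 members (7.76%), in 10 of the 189 members of 250 to 350 nt (5.29%) and in 6 of the 17 members with at least 1000 reads (35.3%). Of these 6, 3 are intervals that are or hold known box C/D snoRNAs (mamRNA, snoR61 and SPNCRNA.723), and among the 130 centromere members the share was 23.1%. A match is a description of letters and not a site.

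SPNCRNA.7137 had 26381 and 22257 reads in replicates 1 and 2, or 1909 ± 198 CPM. The annotated snR10, which lies entirely within it on the opposite strand, had 0 reads in both libraries. An ACA stood before the last 3 nt in 9 of the 19 box H/ACA rows. In snR10 and snR96 it stood there on the opposite strand instead, as in the capitals printed above, and snR96 had 1 read in each library. No other H/ACA row had this pattern. snR5, which also had 0 reads in both libraries, had the ACA on neither strand.

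SPNCRNA.7111 had 12519 and 10818 reads, or 916 ± 79.7 CPM. Its opposite strand carries the short RNAs SPNCRNA.475, with 8 and 6 reads, and SPNCRNA.526, with 0 and 1. The nearest coding genes are swt1, which encodes an RNA endoribonuclease, 698 nt upstream and xlf1, 1316 nt downstream. As for SPNCRNA.808 and SPNCRNA.7137, its reads came from the strand that holds the lncRNA.

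SPNCRNA.242 had 3941 and 3639 reads, or 298 ± 12.0 CPM. It ends 765 nt before dap1, a regulator of cytochrome P450 enzymes, and snoR69b lies between them with 626 and 542 reads. The lncRNA opposite to it, SPNCRNA.965, had 8 and 15 reads. SPNCRNA.4754, a longer interval of 1597 nt, had 2452 and 2484 reads, or 194 ± 4.92 CPM, and its antisense neighbour SPNCRNA.1366 had 22 and 23.

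SPNCRNA.1032, which the reference describes as possibly a small non-coding RNA, had 2324 and 1742 reads, or 160 ± 29.8 CPM, the widest relative spread between the libraries among the members with at least 1000 reads that lie outside the rDNA. SPNCRNA.1444, a 322 nt interval 131 nt after the ribosomal protein gene rpl26 on the same strand, had 2032 and 1790 reads, or 150 ± 11.0 CPM, where rpl26 had 11557 and 11146 reads. SPNCRNA.626, described in the reference as a possible alternative UTR, had 1097 and 1077 reads, or 85.4 ± 0.274 CPM.

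**Figure D3:**
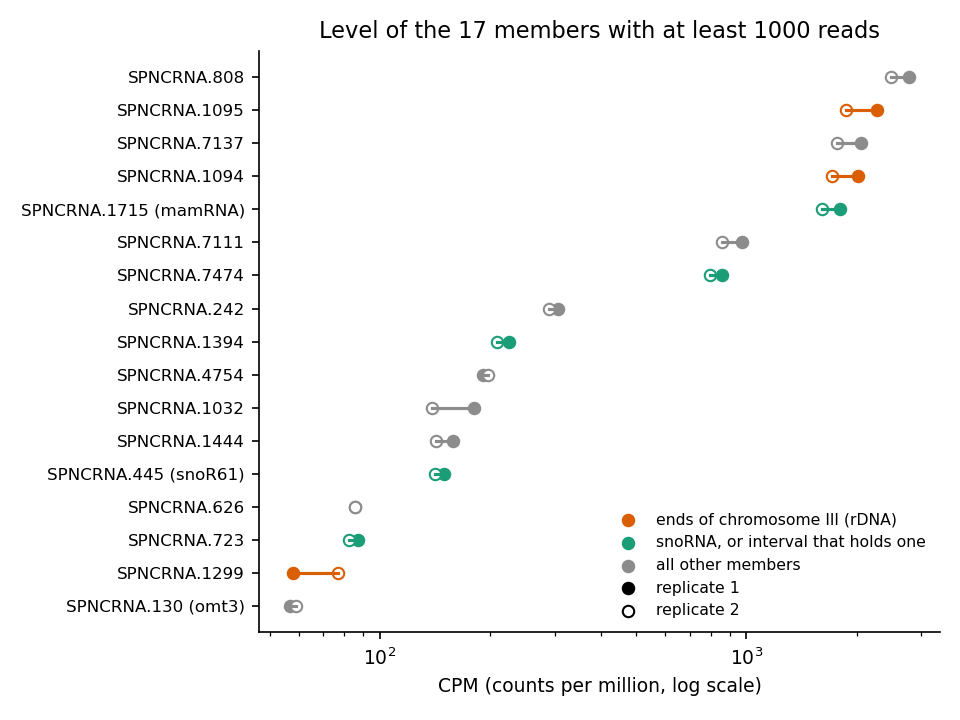
CPM (x axis, log scale) of the 17 members with at least 1000 reads, filled points for replicate 1 and open points for replicate 2, ordered by mean CPM and coloured by position. SPNCRNA.808 is at the top with 2629 CPM and omt3 at the bottom with 58.0 CPM, and the level drops between SPNCRNA.7474 at 826 CPM and SPNCRNA.242 at 298 CPM.

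Of the members, 2 are themselves small guide RNAs and 4 contain a snoRNA on the same strand, and in most of the latter nearly all reads were those of the snoRNA. SPNCRNA.7474 had 11063 and 9978 reads, and snR46 inside it 11062 and 9974, which leaves 1 and 4 reads for the rest of the interval. SPNCRNA.1394 had 2889 and 2616 reads, and snR3 inside it 2888 and 2615. SPNCRNA.723 spans snR41, snR70 and snR51b and had 1124 and 1034 reads, less than the 1186 and 1104 reads of these snoRNAs added up. How a read was assigned where features overlap is not known here. Reads of a host transcript cannot be told apart from these counts.

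mamRNA (SPNCRNA.1715), the lncRNA to which the meiotic regulators Mmi1 and Mei2 bind, kept more reads outside its annotated snoRNA. Its interval at chrII:1307681-1308804 had 23165 and 20261 reads, of which the box C/D snoRNA U14 accounted for 19562 and 16786. The remaining 3603 and 3475 reads are not those of the lncRNA alone. The intron of mamRNA also encodes snR107, a box C/D snoRNA that the study describes and that has no row of its own among the features nested in the interval, and TGATGA at nt 559 and CTGA at nt 658 of the interval are the pair found by the box search. The reads of snR107 and of the lncRNA cannot be told apart in these counts. The snoRNA snoR61 (SPNCRNA.445), itself a member, had 1927 and 1777 reads, or 145 ± 5.98 CPM, and SPNCRNA.1709, described as a guide RNA for the U2 snRNA, had 10 and 14.

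The rDNA repeats at the ends of chromosome III carry 22 members, and their reads were confined to 1 strand. The 5 members on the strand of the rRNA gave 56591 reads in replicate 1 and 47046 in replicate 2. The 17 on the opposite strand had 5 and 6. SPNCRNA.1095 had 29227 and 23583 reads, or 2073 ± 280 CPM, and SPNCRNA.1094, whose sequence is printed above, 25967 and 21525, or 1864 ± 217 CPM. Both lie upstream of an 18S rRNA row, with gaps of 788 and 527 nt.

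SPNCRNA.1299, SPNCRNA.6666 and SPNCRNA.6673 lie between a 28S row upstream and an 18S row downstream and were far less abundant. They had 743, 330 and 324 reads in replicate 1 and 967, 471 and 500 in replicate 2. The 5 intervals occur elsewhere in the assembly at near full length, 4 more times for SPNCRNA.1094 and SPNCRNA.1095 and 2 more times for each of the others. How reads with several mapping positions were counted is not given in the sources used here, so the count of a single copy is uncertain.

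Differences between the libraries were then tested for every feature with at least 10 reads in sum. The exact two-sided binomial test asks whether the reads of a feature divide between the libraries as their totals do. It called 283 of 6752 features (4.19%) at an adjusted p under 0.05 (Benjamini-Hochberg), and 12 of the 238 members tested. In replicate 1, 9 members were higher, where the share over all features was 2.18%, and in replicate 2, 3 members were higher, where it was 2.01%. What is compared here is a pair of libraries, not conditions, and at this minimum the share of members called (5.04%) is close to that over all features. With the test limited to features with at least 100 reads in sum, 12 of 41 members were called, against 6.9% of 4493 features. The closeness thus holds only where members with few reads are counted in.

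All 12 called members had at least 801 reads in sum, and their log2 ratios of replicate 1 over replicate 2 ranged in size from 0.12 to 0.66. The 3 largest toward replicate 1 were those of SPNCRNA.1032 (0.38, adjusted p = 4.8e-15 in the exact binomial test), SPNCRNA.1095 (0.28, adjusted p = 3.3e-104) and SPNCRNA.1094 (0.24, adjusted p = 3.2e-69). SPNCRNA.808, SPNCRNA.7137, the mamRNA interval, SPNCRNA.7111, SPNCRNA.7474 and SPNCRNA.1444 were also higher in replicate 1, by 0.12 to 0.21. Most reads of the mamRNA interval and of SPNCRNA.7474 are those of U14 (log2 ratio 0.19) and snR46 (0.12). The reads of mamRNA outside U14, 3603 in replicate 1 and 3475 in replicate 2, were not tested on their own. The 3 members higher in replicate 2 were SPNCRNA.6673 (-0.66, adjusted p = 7.8e-09), SPNCRNA.6666 (-0.55, adjusted p = 6.3e-06) and SPNCRNA.1299 (-0.41, adjusted p = 2.8e-07).

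The called rDNA intervals thus did not all differ in the same direction. All of them lie upstream of an 18S row of the same strand. The 2 nearest, with gaps of 527 and 788 nt, were higher in replicate 1. The 3 with gaps of 1885 to 2376 nt were higher in replicate 2. These 3 lie 1149 to 1566 nt after a 28S row, and each has 2 other near full-length copies in the assembly. They may thus be copies of the same spacer stretch and not separate cases, so no trend with distance can be read from them. The rRNA rows themselves had log2 ratios of -0.65 (18S, 5 rows together), -0.20 (28S, 3 rows) and -0.03 (5.8S, 3 rows). These rows are what the rRNA depletion acted on, and its part in the differences was not tested.

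The scaling moved the count and the split of the calls. With TMM factors, which shift every log2 ratio by 0.06 toward replicate 1, 16 members were called, against 4.64% of all features. Of these 16, 13 were higher in replicate 1, where the share over all features was 3.76%, and 3 in replicate 2, where it was 0.874%. The 12 members called on library totals were all among the 16. The other 4 were SPNCRNA.1394, SPNCRNA.242, snoR61 and fbp1-ot3. With DESeq2 size factors 15 members were called, against 4.56% of all features, 12 of them higher in replicate 1 (3.69% of all features) and 3 in replicate 2 (0.874%).

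**Figure D4:**
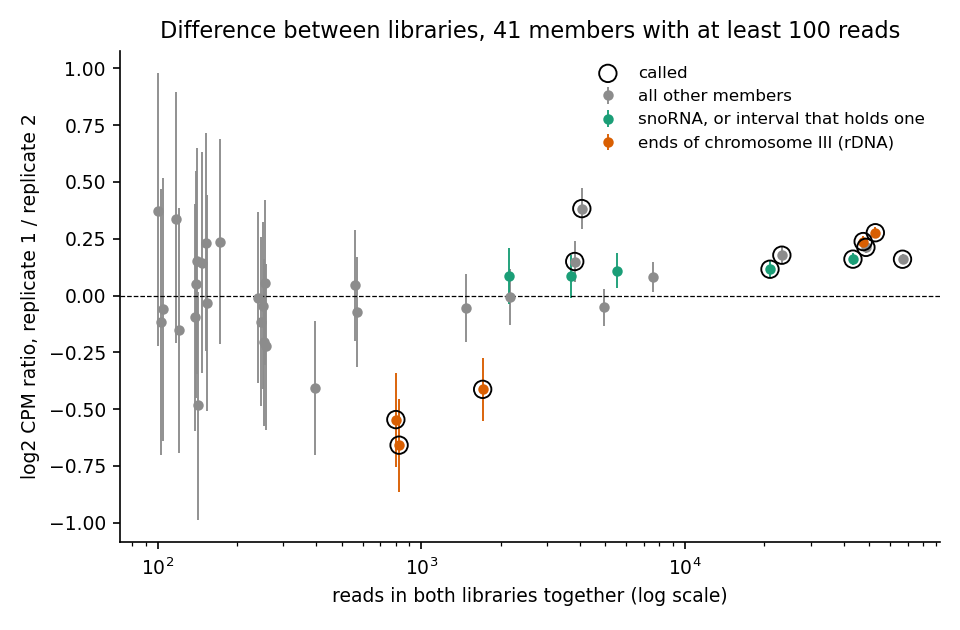
Log2 ratio of CPM, replicate 1 over replicate 2 (y axis), against reads in both libraries (x axis, log scale) for the 41 members with at least 100 reads, with exact 95% binomial intervals as bars and rings around called members. The 3 rings below 0, at -0.66 to -0.41, are the rDNA intervals farther from 18S. The bars of 26 of the 29 members that were not called cross 0.

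Beyond counting error, the spread between the libraries was wider for the members than for coding features. The biological coefficient of variation (BCV, edgeR common dispersion) was 10.3% over the 238 members with at least 10 reads and 5.09% over 4941 coding features. Without the rDNA and snoRNA intervals, a choice made after the values were seen, the BCV of the remaining 227 members was 8.26%. Of these 227, 5 (2.20%) were called, all higher in replicate 1. Over all features 4.19% were called in either direction and 2.18% as higher in replicate 1. The 2 libraries give a single estimate each, and no test of the difference was made.

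The members with a gene symbol were few and mostly low. Of 22, 14 had at least 10 reads. omt3 (SPNCRNA.130) had 733 and 744 reads, or 58.0 ± 1.55 CPM. It lies between mei2, which encodes an RNA-binding protein of meiosis, 1044 nt upstream on the opposite strand, and omt2, 377 nt downstream on the same strand. mei2 had 755 and 707 reads and omt2 35 and 43.

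The meu RNAs are named for meiotic upregulation and were all read in these vegetative cells. meu19 (SPNCRNA.29) had 287 and 272 reads, or 22.0 ± 0.477 CPM. meu3 (SPNCRNA.07) had 26 and 34 reads, and meu11 (SPNCRNA.17) 2 and 2. The levels of these 3 RNAs thus ranged from 0.157 to 22.0 CPM.

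Of the RNAs with a prl symbol, 9 were members, and the reference describes most as poly(A)-bearing and prl105 and prl106 as repressed by Pdc2. prl106 (SPNCRNA.1706) had 121 and 119 reads, or 9.43 ± 0.0418 CPM. prl19 had 21 and 26 reads, prl35 10 and 11, and prl6 5 and 5. prl26 and prl51 had at most 3 in either library, and prl12, prl37 and prl105, together with aal1, had none, which allows up to 0.233 CPM in replicate 1 and 0.238 in replicate 2.

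fbp1-ot3 (SPNCRNA.1325) ends 39 nt before fbp1, the gene of the gluconeogenic enzyme fructose-1,6-bisphosphatase. fbp1 itself had 14 and 10 reads. fbp1-ot3 was read 28 times in replicate 1 and 9 times in replicate 2, at a level of 1.45 ± 1.03 CPM, and its log2 ratio of 1.55 was the largest among the symbols with at least 10 reads. The adjusted p of the exact binomial test was 0.0592 on library totals and 0.0346 with TMM factors. The difference thus falls on either side of the threshold with the scaling.

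sme2 encodes meiRNA, the lncRNA that holds Mmi1 in a nuclear dot during meiosis. The deposited interval SPNCRNA.103 (chrII:338363-339421, minus strand) had 94 and 78 reads, or 6.75 ± 0.780 CPM. It shares 76 nt with sme2 of ASM294v3 (chrII:339346-340907, minus strand). The counts stand for the deposited interval, which lies mostly downstream of that annotated gene. Several probes with which the study detected meiRNA in cells are complementary to the stretch of this interval printed above. SPNCRNA.4673 and SPNCRNA.4674, opposite to it, had 3 and 0 reads in replicate 1 and none in replicate 2.

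The sme2 interval had the highest density of TNAAAC of all members. It held 22 matches on the transcribed strand, or 20.8 per kb, and 5.67 per kb on the opposite strand. The median over the members was 1.84 per kb, and the pooled density was 2.20 per kb on the transcribed and 2.21 on the opposite strand. Of the 22 matches, 10 stand in the 200 nt printed above, most of which lie outside sme2 of ASM294v3. The latter interval held 9 matches, or 5.76 per kb.

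Other named members differed widely in this density. nam5 and nam6, centromeric RNAs named for their association with Mmi1, ranked 28 and 29 of the 1005 members, at 8.32 and 8.27 per kb. Each matched 9 other places in the assembly at near full length, so these ranks may not be separate cases. mamRNA, with 3.56 per kb, ranked 260, and omt3, with 2.00 per kb, ranked 484. The 41 members with at least 100 reads had a median of 2.06 per kb and the 288 without reads 1.08 per kb, and the latter intervals were shorter, with a median length of 333 nt.

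**Figure D5:**
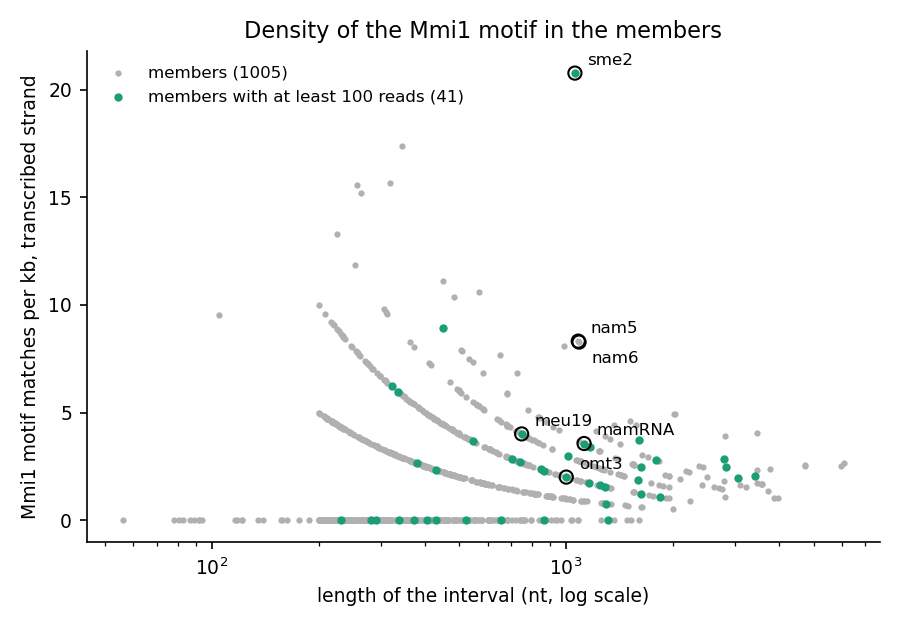
Matches of the Mmi1 motif per kb on the transcribed strand (y axis) against interval length in nt (x axis, log scale) for the 1005 members, with those of at least 100 reads in green and 6 named RNAs ringed. sme2 is the highest point, at 20.8 per kb, and the curved rows of points are intervals with the same small number of matches.

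The promoter windows of the abundant members shared a letter string more often than those of the rest. CAGTCACA was searched on both strands from 250 nt before to 50 nt after the 5′ end of each interval. It was present for 208 of 12637 features (1.65%), for 137 coding features (2.66%) and for 9 of the 53 snoRNA rows. Among the members it was present for 9 of 1005 (0.896%), for 7 of the 41 with at least 100 reads (17.1%) and for 6 of the 17 with at least 1000 reads (35.3%). TATAAA on the transcribed strand was present for 29.2% of all features, 32.5% of the members, 29.8% of those with at least 10 reads, 39.0% of those with at least 100 and 12 of the 17 with at least 1000 (70.6%).

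In 3 of these 7 windows the box was on the transcribed strand, those of SPNCRNA.7474, snoR61 and SPNCRNA.723, all of which are or hold snoRNAs. In SPNCRNA.808, SPNCRNA.7137, SPNCRNA.242 and SPNCRNA.87 it was on the opposite strand. The first base of the box lay from 72 nt before to 6 nt after the annotated 5′ end. SPNCRNA.87 had 83 and 69 reads, the others at least 1034 in each library.

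Centromeres carry 130 members, from transcripts of the repeats and of the IRC borders, and none had 100 reads. Together they held 578 reads of replicate 1 and 594 of replicate 2, and 41 had at least 10 reads in sum. The highest was SPNCRNA.3688 with 42 and 50 reads, followed by SPNCRNA.359 with 37 and 34. nam5 had 25 and 21 reads, nam6 6 and 12, IRC1-L 6 and 5 and IRC1-R 2 and 4.

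Both strands of the centromeres were read. The 71 members of the plus strand had 262 and 267 reads, and the 59 of the minus strand 316 and 327. Of the 41 members with at least 10 reads, 36 had another copy of at least 100 nt at 95% identity or more in the assembly, so most single counts cannot be tied to 1 place. The median level was 0.122 CPM per kb.

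Near the chromosome ends, within 100 kb, 62 of 112 members had no reads and 16 had at least 10, with 761 and 750 reads in all. meu19 alone held 287 and 272 of these. The 5 members of the mating-type region had 13 and 15 reads together and none reached 10. The 7 members at long terminal repeats had 35 and 26. Of the intervals described as a possible alternative UTR, 19 of 21 had 10 reads or more, with a median of 2.34 CPM per kb.

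The remaining 702 members lie in other intergenic regions, where 175 had no reads and 148 had at least 10. They had 89804 and 78430 reads, and their median level was 0.196 CPM per kb. Most of the members with at least 10 reads were in this group, and within it SPNCRNA.808, SPNCRNA.7137 and SPNCRNA.7111 held most of the reads.

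The members were also grouped by orientation toward the neighbouring coding genes. Outside the rDNA and snoRNA intervals, 349 members had an opposite-strand gene upstream and a same-strand gene downstream, with a median of 0.186 CPM per kb. The medians were 0.175 for the 341 members with same-strand genes on both sides, 0.203 for the 147 with opposite-strand genes on both sides and 0.160 for the 129 with a same-strand gene upstream and an opposite-strand gene downstream. Of the members with no coding gene on 1 side, 4 lacked an upstream gene and had no reads, and 7 lacked a downstream gene and had 1 read in all. These are descriptions of position without a test.

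Several abundant members lie just upstream of a coding gene on the same strand. Outside the rDNA and snoRNA intervals, the median of the 476 members within 1000 nt of such a gene was 0.215 CPM per kb. For coding features it was 5.0. Among all members within 1000 nt of such a gene, snoRNA intervals included, the 5 with the highest CPM per kb were SPNCRNA.242, SPNCRNA.1032, snoR61, SPNCRNA.4754 and SPNCRNA.2458. They were picked for a high level, so a lower gene downstream largely follows from the choice. In each case the gene downstream was lower, with 143 and 156 reads for dap1, 181 and 193 for nup37, a nucleoporin gene, 59 and 62 for cwf3, 23 and 31 for SPBC1685.17, and 101 and 110 for hhp2, which encodes a casein kinase 1. The ratio per length was smallest for SPNCRNA.2458, at 66.7 CPM per kb against 3.88 for hhp2, and SPNCRNA.1032 had 227 CPM per kb against 8.74 for nup37. In reads these gaps were smaller, since the genes are longer. SPNCRNA.2458 (337 nt) had 282 and 290 reads, and hhp2 measures 2139 nt. SPNCRNA.1032 (704 nt) had 2324 and 1742 reads, and nup37 measures 1683 nt.

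Many members face another annotated RNA. Of the 1005, 715 overlap a feature on the opposite strand, and 185 of these had at least 10 reads. In 48 of the 185 the member had more than 10 times the reads of the highest opposite feature, in 50 the counts were within 2 times, and in 65 the member was lower. SPNCRNA.934 and SPNCRNA.935 are an example of members that face each other at similar counts, with 120 and 127 reads for the former and 125 and 126 for the latter.

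Members with 100 to 824 reads can be read beside the share called over all features. That share was 4.19%, or 6.9% when the test was limited to features with at least 100 reads. With so low a share, few calls among these members say little about them. SPNCRNA.2458 had 282 and 290 reads, or 22.5 ± 0.809 CPM. Of the 24 members in this range, 2 were the rDNA intervals SPNCRNA.6666 and SPNCRNA.6673, and the binomial test called none of the other 22. For SPNCRNA.6356, with 173 and 224 reads, the log2 ratio was -0.40 and the adjusted p 0.103 in the exact binomial test.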

How the data were processed

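Native RNA of 2 biological replicates was read by direct RNA sequencing (kit SQK-RNA004). The authors called bases with dorado and aligned the reads with minimap2 in spliced mode. The deposited table holds raw counts per feature and library, in whole numbers. Its header is shifted by 1 cell, and for that reason the authors' column for replicate 1 was entered as an estimated count, although it holds counts like that for replicate 2, and rounding changed no value. How reads were assigned to features, by which tool and on which build, is not given in the sources used here. The replicates are separate yeast cultures, per the study's methods.

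Members were found from the coordinates, strands and identifiers in the table, and they and the lists were chosen with earlier results of these data known. CPM used the library totals. The exact two-sided binomial test (SciPy 1.17.1) with Benjamini-Hochberg adjustment was run on 6752 features with at least 10 reads in sum. Shares have Wilson 95% intervals. BCV is the common dispersion of edgeR 4.0.16 with TMM factors and an intercept only, and DESeq2 1.42.0 gave alternative size factors. The test was tried on simulated data. Sequences are RefSeq ASM294v3, motifs were searched as spelled in the text, and copies were found with BLAST 2.17.0. Named were the 10 members with the highest CPM, the 5 with the highest CPM per kb of their own reads, up to 20 with a gene symbol by CPM, the 3 largest called ratios in each direction, mamRNA, sme2 and omt3 (prt and prt2 overlap coding features and are not members), and the 5 highest per kb upstream of a coding gene. Others, such as SPNCRNA.1444, SPNCRNA.626, SPNCRNA.723, SPNCRNA.934, SPNCRNA.935, SPNCRNA.87 and SPNCRNA.3688, were chosen after their values were seen.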

Additional observations from a re-analysis of the deposited data

How the results depend on the processing

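The count of 238 members with at least 10 reads stayed between 180 and 283 under every alternative run, and was 241 and 251 when either library was left out and the minimum lowered to 5. In all, 26 of 48 comparisons of an alternative with the reported value were unchanged and 22 moved. Counts were unchanged within a fixed factor, and levels and shares when they shifted by less than the SD between the libraries. For the BCV any difference counted as moved. By this rule leaving out a library cannot move the share of counts, so the tally does not measure robustness. No paired analysis was possible because both libraries belong to 1 group. The calls and the BCV need both libraries, so neither was left out there.

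The median level of 0.177 CPM per kb became 0.450 with totals without rRNA features, was 0.0786 CPM when not divided by length, and was 0.177 to 0.193 when either library was left out. The share of counts in members, 1.39%, became 1.26% with a limit of 1000 nt, 1.14% with reads of nested features removed, 1.10% without members that overlap another feature on their strand, 3.57% with totals without rRNA and 0.686% without rDNA and snoRNA intervals, an alternative chosen after seeing the data, and was 1.31% to 1.47% with either library left out. The share in the top 10, 90.8%, became 89.1% (250 nt), 93.3% (1000 nt), 92.2% (nested reads removed), 94.1% (overlaps left out) and 93.6% (no rDNA or snoRNA intervals), and 90.3% to 91.3% with either library left out. Of the 12 members called, 5 were left without rDNA and snoRNA intervals, and other alternatives called 10 to 16. Over all features the share called was 4.19% as reported, 2.45% with no minimum beyond 1 read and 6.9% with 100 reads in sum. The BCV of 10.3% became 10.4% (250 nt), 10.8% (1000 nt), 10.6% (overlaps left out), 9.77% (library totals), 10.3% (DESeq2 size factors and, separately, no minimum beyond 1 read), 11.1% (100 reads in sum) and 8.26% (no rDNA or snoRNA intervals). Apart from choices that change the members or totals by construction, the cause was not tested. Depth limits the 767 members under 10 reads.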
